A study of Mus musculus with 36 samples.

Results

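The comparison covers 10 of the 36 mouse pancreatic tumours of the series, 5 from mice given TP-0903 together with gemcitabine and 5 from mice given vehicle. All 5 tumours labelled TP-0903+Gemcitabine were taken. Of the 6 tumours labelled Vehicle, replicate 3 (title A799) was left out, chosen by its lung transcripts. It held 11754 scaled counts of Cxcl15, a chemokine gene of lung epithelium, against 9.48 to 38.2 in the other Vehicle tumours, and 2148 of Lamp3, against 7.04 to 19.4. In the 5 combination tumours the same genes ran from 8.18 to 26.3 and from 9.57 to 22.5. Marco, a receptor of alveolar, splenic and liver macrophages, stood at 68.3 in A799, at 9.03 to 23.8 in the other Vehicle tumours and at 15.2 to 294 in the combination tumours. All 750 endogenous genes of the panel were described. Because these transcripts chose the Vehicle libraries, the 3 lung genes are given as a description only, although they stayed among the genes fitted.

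In both groups the tumours grew from KPfC BMF-A3 cells, a mouse pancreatic cancer line, implanted into the pancreas of wild-type C57BL/6 mice with their own immune system. Every tumour therefore came from 1 cell line, and the labels give neither the age nor the sex of the mice. Therapy began on day 10 after implantation and the mice were killed on day 35. The combination mice received TP-0903, an oral inhibitor of the receptor kinase Axl, at 25 mg/kg each day and gemcitabine by intraperitoneal injection at 25 mg/kg, 3 times a week. Vehicle mice received neither drug, and what the vehicle held is not given in the labels. Nothing in the labels says which mice shared a cage or litter, so the p-values measure the spread between tumours only. For the edgeR test against Vehicle that spread was estimated over 35 libraries from all arms of the series, not over the compared tumours alone.

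Axl belongs with Tyro3 and Mertk to the TAM receptors, which bind Gas6 on dying cells and platelets. In macrophages and dendritic cells they promote the uptake of dead cells and dampen cytokine production after Toll-like receptor signals, and in carcinoma cells Axl is linked to invasion and drug resistance. Gemcitabine is a nucleoside analogue that blocks DNA synthesis and is a standard drug for pancreatic cancer. The comparison asked which immune, stromal and tumour transcripts differed after both drugs were given together.

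Transcripts were counted on nCounter lanes, which count barcoded probes bound to RNA without amplification. Total counts ran from 252251 to 385735 in combination lanes and from 359506 to 490750 in Vehicle lanes (exact two-sided permutation test of the means, p = 0.0317, adjusted over 3 lane measures 0.0476, n = 5 and 5). Housekeeping counts relative to the spiked positive controls averaged 0.234 ± 0.0825 (SD, n = 5) after the combination and 0.386 ± 0.0594 (SD, n = 5) after vehicle (exact permutation p = 0.0238, adjusted 0.0476). That ratio depends on the intact RNA that entered the lane and on the signal of the spiked controls. The housekeeping geometric mean averaged 329 and 446 in the 2 groups, and that of the positive controls 1446 and 1167. The ratio was lowest in combination replicate 3, at 0.141. The number of genes above background averaged 541 and 544 (exact permutation p = 0.944), and the smallest p this design allows is 0.00794. All Vehicle lanes lay on cartridge 1 and all combination lanes on cartridge 2, so cartridge and treatment cannot be told apart within the pair. All 5 combination titles have numbers beginning with 7, as do the titles of Vehicle replicates 1 and 2, while Vehicle replicates 4, 5 and 6 have numbers beginning with 8. The meaning of that digit is not given in the labels. The lane identifiers of 3 of the 5 Vehicle lanes and of 0 combination lanes end in -R, which is also not explained, and its part in the results was not tested.

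Counts were scaled by the geometric mean of the housekeeping genes. With that scaling the negative controls, probes without a target, averaged 15.8 ± 4.30 scaled counts in combination lanes and 9.70 ± 1.79 in Vehicle lanes, a log2 ratio of 0.70, while their unscaled means were 14.7 and 12.9. The fold of a gene went with its level. The 196 tested genes with a mean of at most 30 scaled counts had a median log2 fold of 0.54, and 184 of them were positive. Genes between 30 and 100 had a median of 0.32, those between 100 and 300 a median of 0.04, and the 129 genes above 300 a median of 0.00. An alternative chosen after seeing the data, limma after subtracting each lane's mean negative control, had a median over all genes of 0.06. With edgeR and no subtraction it was 0.27. Method and subtraction changed together there, so the shift cannot be given to either alone. Each fold of a dim gene below is to be read beside the medians of the level classes.

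**Figure D1:**
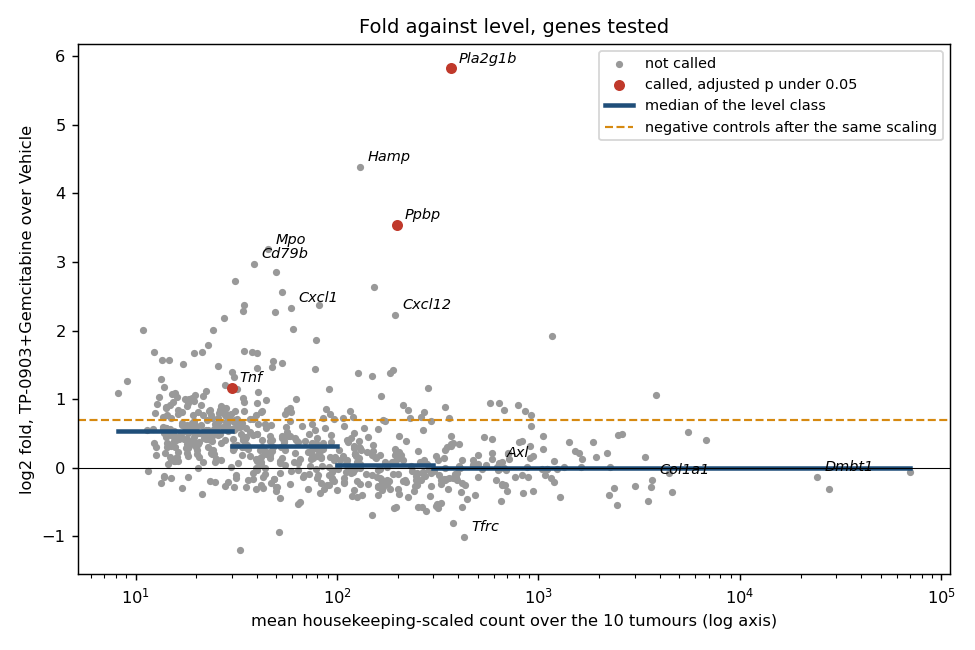
Log2 fold of TP-0903+Gemcitabine over Vehicle (vertical axis) against the mean housekeeping-scaled count over the 10 tumours (horizontal axis, log scale), 1 point per tested gene. Bars give the median of each level class, which was 0.54 for the dimmest and 0.00 for the brightest genes, and the dashed line gives the shift of the negative controls, 0.70. Red points are the 3 called genes.

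Of the 750 genes, 680 were tested and 3 were called at an edgeR adjusted p under 0.05, which is 0.441% of those tested. All 3 were higher after the combination: Pla2g1b, which encodes a secreted phospholipase of the exocrine pancreas, Ppbp, which encodes the platelet chemokine precursor that gives rise to the neutrophil attractant Cxcl7, and Tnf, the inflammatory cytokine of macrophages and T cells. No gene was called lower. At an unadjusted p under 0.05, 109 genes were higher and 12 lower. Of all tested genes 490 (72.1%) had a positive fold. That share went with level: 184 of 196 genes at or below 30 scaled counts were positive, against 66 of 129 above 300. The positive members of each list are to be read beside the share at their own level, which for dim genes is the higher one. Which genes were called, and the direction of most of them, rested on the scaling, while the folds of Pla2g1b, Ppbp and Tnf stayed positive. With the positive controls as the only scale, 46 genes were called, 2 higher (Pla2g1b and Ppbp) and 44 lower, and the median over all genes moved from 0.27 to -0.50. DESeq2 with its own size factors called 29 genes, 10 higher and 19 lower, with an all-gene median of 0.00. The 10 were the 3 genes named here together with Prg2, Cd79b, Clec4n, Csf2, Clec7a and the neutrophil granule genes Camp and Mpo. TMM scaling, with an all-gene median of 0.01, called 0 genes (114 at an unadjusted p under 0.05), and limma called 0 (103).

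Pla2g1b stood at 29.5, 105, 2923, 508 and 62.2 scaled counts in combination replicates 1 to 5. In Vehicle replicates 1, 2, 4, 5 and 6 it stood at 21.1, 8.76, 4.52, 7.92 and 21.0. The lowest combination tumour lay above the highest Vehicle tumour, and replicate 3 was the highest. The log2 fold was 5.82 ± 1.29 (SE, edgeR adjusted p = 0.0499). The gene was above the lane's background in 5 of 5 combination and 2 of 5 Vehicle tumours. Without combination replicate 3 the log2 fold was 3.78 and the call was lost. Dmbt1, a secreted scavenger receptor of pancreatic ducts and the other pancreas gene on the panel, ran from 18113 to 27180.4 scaled counts after the combination and from 9840.49 to 51392 after vehicle (log2 fold -0.13 ± 0.70, edgeR adjusted p = 0.915).

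Ppbp stood at 911, 506, 230, 84.4 and 103 scaled counts in combination replicates 1 to 5. The Vehicle tumours held 36.5, 30.04, 30.1, 25.5 and 34.8. The groups did not overlap, and combination replicates 1 and 2 were the highest. The log2 fold was 3.54 ± 0.84 (edgeR adjusted p = 0.0499), every one of the 10 tumours was above background, and the groups also did not overlap with positive-control scaling. Itga2b, the platelet integrin, was above all Vehicle tumours in each combination tumour with housekeeping scaling but not with positive-control scaling. It was not called as reported.

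Tnf stood at 33.6, 33.8, 70.2, 43.8 and 28.7 scaled counts after the combination and at 19.0, 21.9, 15.8, 21.1 and 14.6 after vehicle. The groups did not overlap with housekeeping scaling and overlapped with positive-control scaling. The log2 fold was 1.16 ± 0.28 with housekeeping scaling (edgeR adjusted p = 0.0499) and 0.32 with positive-control scaling, where it was not called. In Vehicle tumours Tnf was above background in 3 of 5 lanes, so its Vehicle level lies near what the assay can detect.

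The 3 calls lay at the edge of the threshold. Leaving out any 1 of the 5 Vehicle tumours, or combination replicate 3, left 0 called genes by edgeR. Leaving out combination replicate 1 or 2 left 1, Pla2g1b in both cases, and without replicate 4 there were 2. A cartridge block, which other arms set because the compared arms share no cartridge, called 10 genes, all higher. Of the 3 only Ppbp was among them, with Cxcr5, Cr2, Tal1, Ms4a1, Cd79b, Irf4, Icam4, Cd37 and Mpo.

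**Figure D2:**
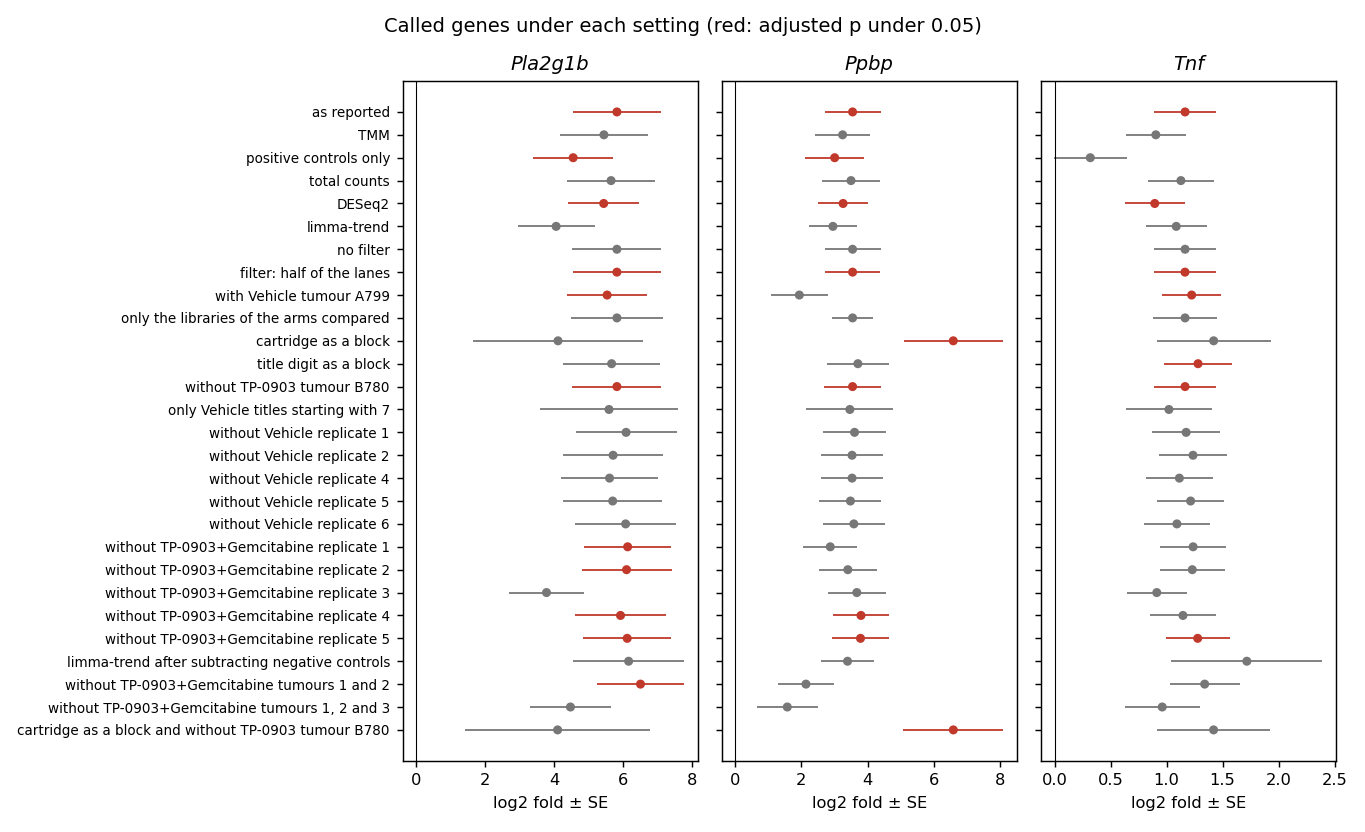
Log2 fold with SE (horizontal axis) of Pla2g1b, Ppbp and Tnf under the reported setting and each alternative (vertical axis). Red points have an adjusted p under 0.05. All folds were above 0, from 3.78 to 6.51 for Pla2g1b, from 1.57 to 6.58 for Ppbp and from 0.32 to 1.72 for Tnf, and 17, 19 and 21 of the 27 alternatives ended the call of Pla2g1b, Ppbp and Tnf.

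Non-overlap of the scaled counts gives a second count, taken whether or not a value was above its lane's background. In 19 of the 680 tested genes (2.79%) every combination tumour lay above every Vehicle tumour: Ada, Ccl7, Cd37, Cfp, Clec4n, Clec7a, Cxcl3, Hamp, Ifit1, Itga2b, Lyz2, Msr1, Pla2g1b, Plau, Ppbp, Ripk2, Tnf, Tnfrsf9 and Tpsab1. In 1 gene (0.147%), Tfrc, every combination tumour lay below. Under positive-control scaling these counts were 2 higher (Pla2g1b and Ppbp) and 58 lower, Tfrc again among the lower.

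Tfrc encodes the transferrin receptor, which brings iron into dividing cells. It stood at 297, 188, 382, 253 and 299 scaled counts in combination replicates 1 to 5 and at 543, 404, 522, 467 and 916 in the Vehicle tumours. The log2 fold was -1.01 ± 0.33 and did not pass with edgeR (adjusted p = 0.124). Over all 27 alternatives its fold stayed below 0, from -1.68 with positive controls to -0.34 with the cartridge as a block and without TP-0903 replicate 3. It was called lower with positive-control scaling and with DESeq2. The other 11 genes that were lower at an unadjusted p under 0.05 included the NF-kB subunit Rela (-0.56 ± 0.22), the NF-kB pathway kinase Ikbkb (-0.41 ± 0.16), the deubiquitinase Cyld (-0.39 ± 0.17), the co-activators Ep300 (-0.57 ± 0.23) and Crebbp (-0.59 ± 0.25), Stat3 (-0.39 ± 0.17) and the AP-1 subunit Jun (-0.43 ± 0.19). Their edgeR adjusted p-values, with those of Dock9, St6gal1, Sbno2 and Cd276, lay between 0.189 and 0.277, so none passed as reported. DESeq2 called all of them lower except Rela. Positive-control scaling, which moved most genes down, called genes such as Rela, Ikbkb, Cyld, Stat3, Jun, Dock9 and St6gal1 lower. These genes sat between 61.4 and 649 scaled counts in single tumours. The level classes, set on means over the 10 tumours, had a median of 0.32 between 30 and 100. Above 100 the class medians were 0.04 and 0.00.

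**Figure D3:**
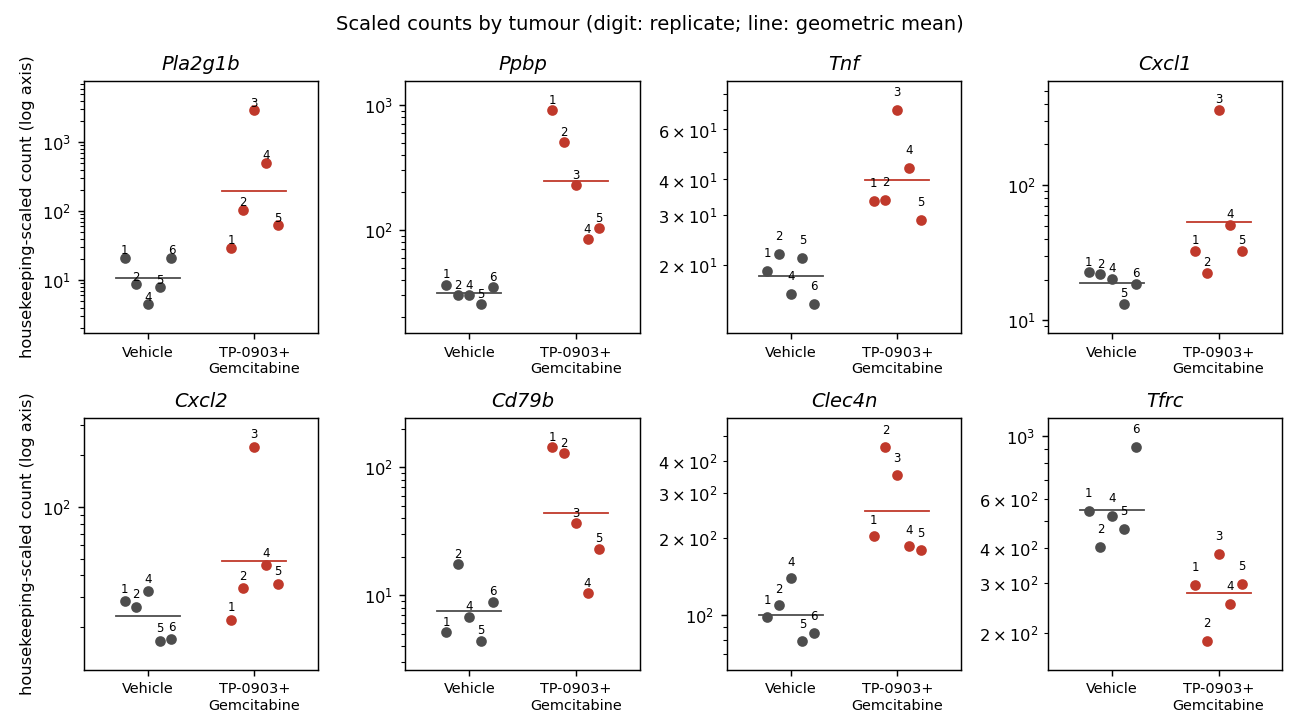
Housekeeping-scaled counts (vertical axis, log scale, own range in each panel) of 8 genes in the 5 Vehicle and 5 TP-0903+Gemcitabine tumours, with the replicate beside each point and the geometric mean as a line. The groups do not overlap for Pla2g1b, Ppbp, Tnf, Clec4n and Tfrc, and replicate 3 stands highest for Pla2g1b, Tnf, Cxcl1 and Cxcl2. With positive-control scaling the groups of Tnf and Clec4n overlap.

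Genes of chemokines that attract neutrophils lay above Vehicle in most tumours. Of 8 tested members of that list 7 had a positive fold, 6 had an unadjusted p under 0.05 and 1, Ppbp, was called. Their median log2 fold was 1.48, against 0.27 over all tested genes, and with positive-control scaling it was 0.50 against -0.50. Cxcl1, a ligand of the neutrophil receptor Cxcr2, stood at 32.7, 22.5, 358, 51.1 and 32.7 scaled counts after the combination and at 22.6, 21.9, 20.3, 13.2 and 18.6 after vehicle. Combination replicate 3 held the outlying value and replicate 2 lay at the top of the Vehicle range, so the groups overlapped. For Cxcl1, combination replicate 2 and Vehicle replicates 5 and 6 were below background. The log2 fold was 2.33 ± 0.79 (edgeR adjusted p = 0.134), and without combination replicate 3 it was 0.84. With TP-0903 replicate 3 left out of the fit, Cxcl1 was called at a log2 fold of 2.33 (edgeR adjusted p = 0.0384).

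Cxcl2, another Cxcr2 ligand, stood at 22.1, 33.8, 224, 45.9 and 35.9 scaled counts after the combination and at 28.4, 26.3, 32.4, 16.7 and 17.0 after vehicle. Replicate 3 was again the highest and replicate 1 lay within the Vehicle range (log2 fold 1.55 ± 0.49, edgeR adjusted p = 0.124). Vehicle replicate 6 was below background for Cxcl2. Cxcl3 stood at 25.4, 25.0, 81.9, 37.5 and 48.6 against 8.75, 24.4, 24.1, 16.7 and 7.28 (1.40 ± 0.45, edgeR adjusted p = 0.124). The groups did not overlap, although 2 combination tumours lay within 1 scaled count of the highest Vehicle tumour. Combination replicate 2 and Vehicle replicates 1 and 6 were below background for Cxcl3. Csf2, the growth factor of granulocytes and macrophages, ran from 19.6 to 104 after the combination and from 8.14 to 24.8 after vehicle, with combination replicate 1 inside the Vehicle range (1.67 ± 0.49, edgeR adjusted p = 0.124).

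Tnf, Cxcl1 and Cxcl2 are textbook targets of NF-kB. Their promoters are shown so that the sequence before the called gene Tnf can be read beside those of both Cxcr2 ligands. Neither ligand was called as reported. The sequences are the 250 bases before each gene's start from RefSeq on GRCm38.p6, read 5′ to 3′ along the gene. Capitals mark matches to a fixed form of the NF-kB motif, GGG then any 2 bases then TTTCC, on either strand. Tnf lies at chr17:35202008-35202257 on the minus strand, Cxcl1 at chr5:90890995-90891244 and Cxcl2 at chr5:90903649-90903898, both on the plus strand.
Tnf: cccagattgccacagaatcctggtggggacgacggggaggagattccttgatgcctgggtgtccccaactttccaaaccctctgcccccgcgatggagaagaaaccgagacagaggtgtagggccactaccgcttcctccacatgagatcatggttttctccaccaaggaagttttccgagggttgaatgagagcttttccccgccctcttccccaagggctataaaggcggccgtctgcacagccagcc
Cxcl1: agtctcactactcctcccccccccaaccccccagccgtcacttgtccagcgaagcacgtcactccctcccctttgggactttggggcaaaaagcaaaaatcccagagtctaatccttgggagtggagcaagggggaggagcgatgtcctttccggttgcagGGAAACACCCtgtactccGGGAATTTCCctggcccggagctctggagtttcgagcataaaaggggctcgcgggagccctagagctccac
Cxcl2: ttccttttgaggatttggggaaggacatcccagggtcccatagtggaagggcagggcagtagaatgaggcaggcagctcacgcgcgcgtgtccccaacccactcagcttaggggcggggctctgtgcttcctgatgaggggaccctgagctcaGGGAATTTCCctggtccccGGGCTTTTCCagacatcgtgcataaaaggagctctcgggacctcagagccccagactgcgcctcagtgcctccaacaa
The Cxcl1 window held 2 matches, which began 89 and 71 bases before the start, the first on the reverse strand. The Cxcl2 window held 2 on the forward strand, beginning 97 and 78 bases before the start, and the Tnf window held 0. Of 32851 promoters in the table, 464 (1.41%) held the motif in the same window. A match is a run of letters and not a measured binding site. Only this form and this window were searched, so the 0 for Tnf does not show that the gene lacks NF-kB sites. Over the 26 tested genes of the NF-kB and cytokine list, 13 were positive, 1 (Tnf) was called, and the median log2 fold was 0.01, and -0.73 with positive-control scaling.

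Neutrophil granule and receptor genes were positive in 12 of 12 tested members, with a median log2 fold of 0.96 and 0.14 with positive-control scaling. None was called by edgeR as reported and 6 had an unadjusted p under 0.05. Mpo, the myeloperoxidase of primary granules, stood at 247, 57.6, 79.0, 11.5 and 14.4 scaled counts in combination replicates 1 to 5 and at 11.7, 8.76, 7.53, 7.04 and 9.71 in Vehicle tumours. It was above background in replicates 1, 2 and 3 and in 0 Vehicle tumours (log2 fold 3.18 ± 1.14, edgeR adjusted p = 0.150). Its geometric mean after the combination was 2.78 times the bound set by the Vehicle thresholds. In that mean replicates 4 and 5 entered at counts below their own backgrounds. S100a8, an abundant neutrophil alarmin, stood at 3943, 1922, 2932, 233 and 223 after the combination and at 159, 508, 400, 1087 and 295 after vehicle (1.92 ± 0.84, edgeR adjusted p = 0.218). For both genes replicates 1, 2 and 3 were high and replicates 4 and 5 lay at or near the Vehicle range.

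Of 11 tested CC chemokines 10 were positive (median 0.61, and -0.21 with positive-control scaling) and none was called. Ccl2, which draws monocytes, stood at 85.9, 151, 319, 180 and 185 scaled counts against 73.7, 108, 68.5, 57.2 and 42.9 in the Vehicle tumours, with 4 combination tumours above every Vehicle tumour (1.39 ± 0.59, edgeR adjusted p = 0.209). Of 25 tested macrophage and monocyte genes 21 were positive (median 0.40, and -0.36 with positive-control scaling), none was called, and Cd68, a lysosomal macrophage marker, had 0.46 ± 0.27 (edgeR adjusted p = 0.330). Arg1, the arginine-degrading enzyme of suppressive myeloid cells, ran from 579 to 1949.96 after the combination and from 393 to 1149.73 after vehicle (0.82 ± 0.65, edgeR adjusted p = 0.480).

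Among the genes without overlap were Clec4n and Clec7a, which encode the fungal pattern receptors Dectin-2 and Dectin-1 of myeloid cells. Clec4n stood at 203, 454, 354, 186 and 179 scaled counts after the combination and at 98.5, 109, 139, 79.2 and 85.0 after vehicle (log2 fold 1.43 ± 0.41, edgeR adjusted p = 0.124). Clec7a ran from 70.2 to 245 against 50.2 to 62.0 (1.15 ± 0.32, edgeR adjusted p = 0.124). All 10 tumours were above background for both, and neither was called, though DESeq2 called both higher. With positive-control scaling their folds were 0.57 and 0.36.

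B cell genes were positive in 21 of 21 tested members, with 17 at an unadjusted p under 0.05 and none called as reported. Their median log2 fold was 1.00, and 0.25 with positive-control scaling. Cd79b, a chain of the B cell receptor, stood at 145, 129, 36.6, 10.4 and 23.1 scaled counts after the combination and at 5.10, 17.5, 6.77, 4.402 and 8.90 after vehicle (2.97 ± 0.91, edgeR adjusted p = 0.124). It was below background in combination replicate 4 and in every Vehicle tumour except replicate 2. Ms4a1, which encodes CD20, stood at 194, 180, 58.5, 29.2 and 24.7 against 23.3, 28.2, 24.1, 14.1 and 29.1 (2.03 ± 0.70, edgeR adjusted p = 0.147). Replicates 1 and 2 were the highest for both genes and replicates 4 and 5 were close to the Vehicle tumours. Cr2, a complement receptor of B cells and follicular dendritic cells, was above background in 0 Vehicle tumours and in 2 combination tumours (1.51 ± 0.44, edgeR adjusted p = 0.124). Its geometric mean after the combination was 1.31 times the Vehicle bound, with combination tumours below background entered at their own counts. The scaled negative controls were also higher in combination lanes, at 15.8 against 9.70.

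Markers of lymph node or spleen moved with the B cell genes. That list, which shares genes with the B cell list, was positive in 11 of 11 tested members, with a median of 1.51 and 8 at an unadjusted p under 0.05. Its summed level ran from 304 to 1423 scaled counts after the combination and from 209 to 446 after vehicle. On the log2 scale replicates 1, 2 and 3 lay 1.91, 2.27 and 2.06 above the Vehicle mean, and replicates 4 and 5 lay 0.13 and 0.04 above it. B cell genes as a sum lay 1.75, 1.94 and 1.85 above in replicates 1, 2 and 3 and 0.34 and 0.23 above in replicates 4 and 5. Without combination replicates 1, 2 and 3, chosen after seeing the data, the median fold of B cell genes was 0.22, that of lymph node or spleen genes 0.21 and that of all genes -0.03. The part of such tissue in the B cell values was not tested. In bulk tumour RNA a change in the number of cells of a type and a change in RNA per cell cannot be told apart.

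Liver genes stood apart in combination replicate 3. All 13 tested members had a positive fold (median 1.204, and 0.20 with positive-control scaling). Hamp, the liver hormone hepcidin, stood at 31.1, 108, 1015, 75.0 and 17.5 scaled counts after the combination and at 16.8, 8.14, 13.5, 10.6 and 9.71 after vehicle (4.39 ± 1.53, edgeR adjusted p = 0.150). It was below background in combination replicate 5 and in every Vehicle tumour except replicate 1. Summed liver genes in replicate 3 reached 3988 scaled counts, 3.59 log2 units above the Vehicle mean. Replicates 2 and 4 lay 0.74 and 0.75 above it, and replicates 1 and 5 lay at -0.17 and -0.31 on that scale, while Vehicle replicate 1 lay 1.15 above. That tumour was also the highest for Pla2g1b, Tnf, Cxcl1, Cxcl2, Cxcl3 and Il6 and had the lowest ratio of housekeeping to positive-control counts. The part of liver tissue or of RNA input in those values was not tested. Without replicate 3 the log2 fold of Tnf was 0.91 and that of Pla2g1b 3.78, and neither was called.

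**Figure D4:**
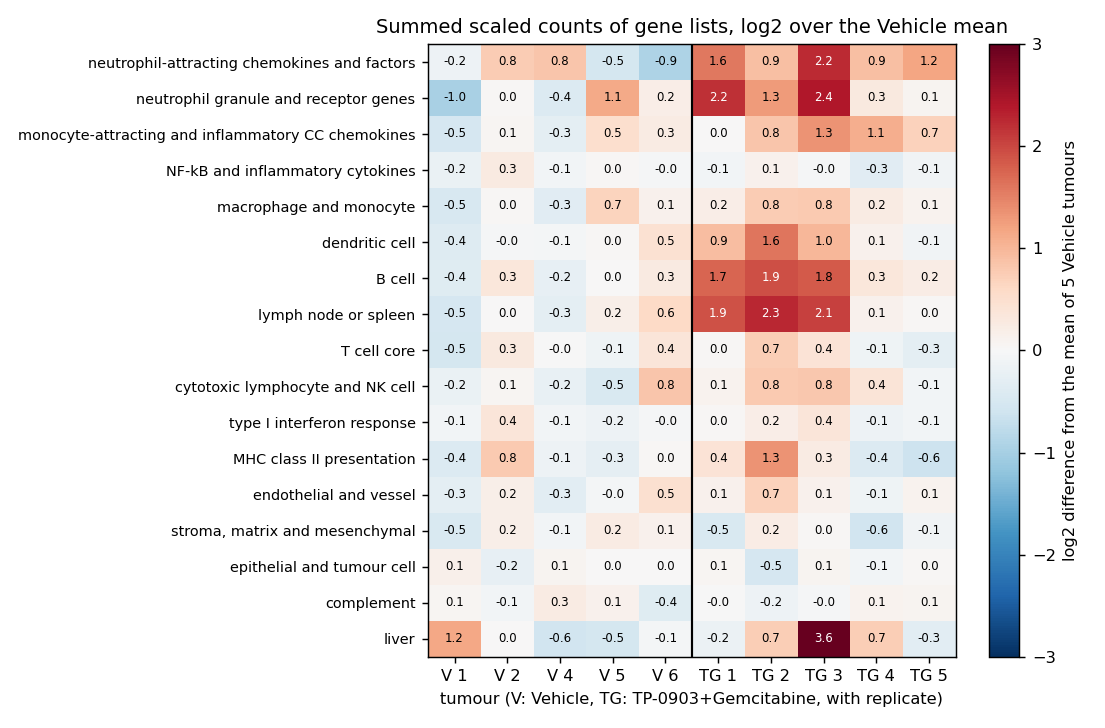
Log2 difference of the summed scaled counts of 17 gene lists (rows) from the mean of the 5 Vehicle tumours, in each Vehicle (V) and TP-0903+Gemcitabine (TG) tumour (columns), with housekeeping scaling. B cell, lymph node or spleen, dendritic cell and neutrophil granule genes stood high in TG 1, 2 and 3 and near the Vehicle level in TG 4 and 5, and liver genes stood high in TG 3.

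Of 17 tested T cell genes 15 were positive (median 0.62, and -0.23 with positive-control scaling) and none was called. The receptor chain Cd3d stood at 51.6, 71.4, 73.1, 41.7 and 30.3 scaled counts against 17.5, 41.9, 32.4, 24.6 and 34.0 (0.82 ± 0.30, edgeR adjusted p = 0.165). The CD8 T cell gene Cd8a, the regulatory T cell factor Foxp3 and the granzyme gene Gzmb were below background in all 10 tumours and were not tested, so a difference was not detectable at this depth. Of 18 tested cytotoxic and NK genes 16 were positive (median 0.49, and -0.29 with positive-control scaling), and Ifng was below background in all 10 tumours.

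The checkpoint gene Cd274, which encodes PD-L1, ran from 43.8 to 77.6 scaled counts after the combination and from 32.1 to 62.5 after vehicle (0.26 ± 0.25, edgeR adjusted p = 0.559). None of 20 tested checkpoint genes was called. The 12 tested MHC class I presentation genes had a median of 0.20 and the 11 class II genes a median of 0.38, each with 0 called and 9 positive. H2-Ab1, a class II chain, stood at 613, 1522, 227, 121 and 129 after the combination and at 333, 1130.19, 455, 199 and 521 after vehicle, so combination replicates 4 and 5 lay below every Vehicle tumour and replicate 2 above (-0.02 ± 0.62, edgeR adjusted p = 0.994). Among type I interferon response genes 18 of 25 were positive (median 0.25), and among genes induced by interferon gamma 10 of 15 (median 0.14). All of these medians were below 0 with positive-control scaling.

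Dendritic cell genes were positive in 14 of 15 tested members with a median of 0.61, and -0.10 with positive-control scaling. None was called. Cd86, a co-stimulatory ligand, stood at 75.3, 116, 124, 57.3 and 46.3 scaled counts after the combination and at 28.4, 50.7, 46.7, 23.8 and 59.1 after vehicle, with 3 combination tumours above every Vehicle tumour (1.00 ± 0.31, edgeR adjusted p = 0.124). Eosinophil and mast cell genes were positive in 11 of 13, with a median of 0.57, and -0.20 with positive-control scaling. Prg2, the eosinophil major basic protein, stood at 72.8, 131, 49.7, 6.25 and 11.96 against 7.29, 7.51, 6.02, 5.28 and 14.6. It was above background in replicates 1, 2 and 3 and in 0 Vehicle tumours (2.72 ± 0.75, edgeR adjusted p = 0.124). Its geometric mean after the combination was 1.999 times the Vehicle bound, with replicates 4 and 5 entered at counts below their own backgrounds.

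The target of TP-0903 did not separate the groups. Axl stood at 498, 926, 480, 637 and 740 scaled counts after the combination and at 411, 602, 569, 711 and 829 after vehicle (log2 fold 0.07 ± 0.27, edgeR adjusted p = 0.889). Mertk, its relative on macrophages, ran from 49.4 to 129 against 48.9 to 124 (0.26 ± 0.31, edgeR adjusted p = 0.646). Transcript counts do not measure whether the kinase was inhibited.

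Genes of the tumour cells and the stroma gave 0 calls. The epithelial genes Epcam and Cdh1, which mark the cancer cells, were present in all 10 tumours, at 797 to 3707 and 1106 to 3109 scaled counts. Their folds were 0.38 ± 0.54 and -0.40 ± 0.32. Of 15 tested epithelial genes 8 were positive (median 0.19) and of 19 stromal genes 11 (median 0.05), and with positive-control scaling the medians were -0.61 and -0.69. Col1a1, the main fibrillar collagen chain, stood at 2117, 7593, 2383, 1855 and 3281 after the combination and at 2914, 3404, 2499, 5170.28 and 5476 after vehicle, with replicate 2 above every Vehicle tumour and replicates 1, 3 and 4 below (-0.18 ± 0.62, edgeR adjusted p = 0.883). Cdkn1a, the p21 cell cycle inhibitor that p53 induces, ran from 243 to 448 against 136 to 351 (0.55 ± 0.29, edgeR adjusted p = 0.317), and cell cycle and apoptosis genes were positive in 12 of 19.

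Endothelial genes were positive in 14 of 15 (median 0.26) and complement genes in 24 of 28 (median 0.61), Toll-like receptor and inflammasome genes in 22 of 28 (median 0.20), and regulatory and helper T cell factors in 7 of 14 (median -0.08), with 0 called in each. With positive-control scaling all of these medians were negative.

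Among the 109 genes that were higher at an unadjusted p under 0.05, the highest tumour was replicate 3 in 50, replicate 2 in 44, replicate 1 in 12, replicate 4 in 3 and replicate 5 in 0. Replicate 5 was the lowest of the combination tumours in 61 of them. Over all 680 tested genes the highest tumour was replicate 2 in 310, replicate 3 in 245, replicate 5 in 50, replicate 1 in 49 and replicate 4 in 26, so replicates 2 and 3 led among all genes too.

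Against each drug alone the combination gave 0 called genes. These fits used 676 tested genes and also left out TP-0903 replicate 3 (title B780), which held 38174 scaled counts of the liver gene H2-Q10. Against Gemcitabine (n = 4) edgeR called 0% of genes, with 82 at an unadjusted p under 0.05 and a smallest adjusted p of 0.0611. Against TP-0903 (n = 3) it also called 0%, with 71 at an unadjusted p under 0.05 and a smallest adjusted p of 0.150. The test of a departure from the sum of the single agents gave 0%, with 58 at an unadjusted p under 0.05 and a smallest adjusted p of 0.503.

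Pla2g1b stood at 3.23, 8.75, 1.44 and 37.2 scaled counts in the 4 Gemcitabine tumours and at 6.55, 21.3 and 9.93 in the 3 TP-0903 tumours, and 4 of the 5 combination tumours lay above all of these. It was above background in 1 tumour of each single-agent arm, so the fitted folds rest on levels below the lanes' thresholds. The log2 fold was 5.74 ± 1.42 against Gemcitabine (edgeR adjusted p = 0.0611) and 5.84 ± 1.63 against TP-0903 (0.150). Ppbp stood at 480, 106, 35.4 and 35.9 with Gemcitabine and at 138, 160 and 134 with TP-0903, so single-agent tumours reached the range of the combination. The folds of the combination over these arms were 1.17 ± 0.83 and 1.35 ± 0.93 for Ppbp (edgeR adjusted p = 0.526 and 0.564).

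Tnf stood at 19.4, 38.7, 21.7 and 26.6 with Gemcitabine and at 18.9, 33.1 and 25.97 with TP-0903, overlapping the combination in both cases (edgeR adjusted p = 0.358 and 0.451). Tfrc stood at 670, 217, 303 and 255 with Gemcitabine and at 475, 353 and 381 with TP-0903, so 3 of 4 Gemcitabine and 2 of 3 TP-0903 tumours lay in the range of the combination. Gemcitabine replicates 3 and 4 were on the cartridge of the combination lanes, and their values were 35.4 and 35.9 for Ppbp and 303 and 255 for Tfrc.

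Beside the arm that received the antibody to PD1 as well (TP-0903+Gemcitabine+anti-PD1, n = 5, cartridge 3), edgeR called 0% of genes, with 86 at an unadjusted p under 0.05 and a smallest adjusted p of 0.181. Ppbp averaged 367 ± 348 (SD, n = 5) in the combination and 341 ± 405 (SD, n = 5) with the antibody added. Pla2g1b averaged 725 ± 1243 and 40.7 ± 12.6, a log2 fold of 4.16 ± 1.19 that did not pass (edgeR adjusted p = 0.181). Cxcl1 had a log2 fold of 1.96 ± 0.53 in the same comparison (edgeR adjusted p = 0.181). The comparisons with Vehicle and with these arms share the combination tumours.

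**Figure D5:**
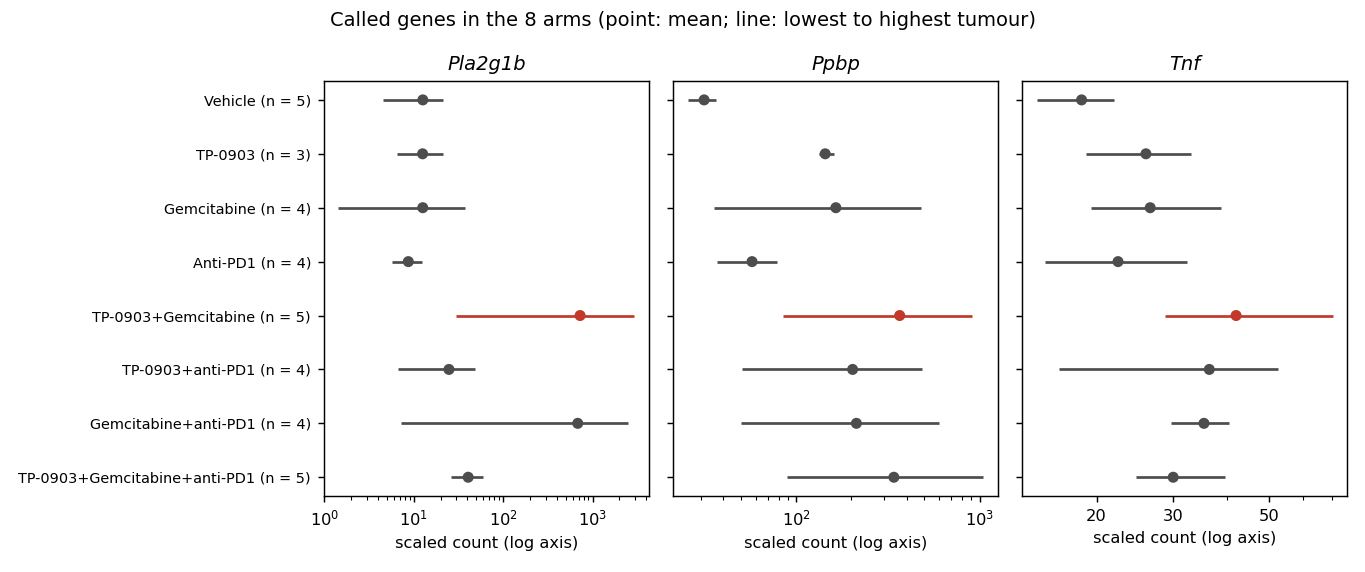
Housekeeping-scaled counts (horizontal axis, log scale) of the 3 called genes in the 8 arms, with the mean as a point and the lowest to highest tumour as a line. TP-0903+Gemcitabine is in red, Vehicle is shown without replicate 3 and TP-0903 without replicate 3. For Pla2g1b the Gemcitabine+anti-PD1 arm also reached 2512 in 1 tumour, and for Ppbp every arm other than Vehicle and Anti-PD1 reached above 100.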

How the data were processed

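The data are nCounter counts of the mouse PanCancer Immune panel (750 endogenous and 20 housekeeping genes, 6 positive and 8 negative controls). The authors deposited whole-number counts per probe in a value table; the design text calls the values normalized, but 27720 of 27720 equalled those of the deposited lane report (other columns of that report, per the file headers, hold lane attributes such as cartridge). Genes were tested where above the lane's negative mean + 2 SD in at least 4 lanes. The edgeR quasi-likelihood test (edgeR 4.0.16, R 4.3.3) used 1 mean per arm over 35 libraries, library sizes from the housekeeping geometric mean, and Benjamini-Hochberg adjustment over all genes tested, called under 0.05; an SE is the log2 fold over the square root of F. Comparisons with other arms used 34 libraries. Alternatives used limma 3.58.1 on log2(scaled count + 1) and DESeq2 1.42.0. The fit was tested on simulated data. A bound is the geometric mean of the undetected group with each lane at its threshold or its own value, whichever is higher. It was set under the geometric mean of the detected group, in which lanes below background kept their own counts. Of the 750 genes, 727 matched RefSeq by accession. Libraries within a group differed by at least 11.3 times the counting variance, so none was a duplicate. Named genes were the called genes, the genes with the smallest p up to 12 in each direction, a set list, and the 4 members of each list with the smallest p; genes without overlap were named in full after their values were seen, with Itga2b among them. The comparison, the 27 gene lists (429 of 491 genes on the panel) and this rule were chosen with earlier results of these data known. Replicate numbers follow accession order.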

Additional observations from a re-analysis of the deposited data

Results flagged for a closer look

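In 13 of 114 groups of 5 tumours examined (54 genes and 3 lane measures), 1 tumour lay apart from the other 4 by more than Dixon's 95% critical value, which chance gives in about 1 of 20 groups. Combination replicate 3 held 5 of these values. It was high for Pla2g1b (2923 scaled counts, next 508), Cxcl1 (358, next 51.1), Cxcl2 (224, next 45.9) and Il6 (77.5, next 28.1), and low for the sialyltransferase gene St6gal1 (130, next 220). Combination replicate 1 stood apart for Mpo (247, next 79.0) and replicate 2 for Col1a1 (7593, next 3281). Among Vehicle tumours replicate 6 stood high for Tfrc (916, next 543), Vim (7276, next 3507), Cd276 (193, next 133) and Prg2 (14.6, next 7.51, both below background). Vehicle replicate 2 stood high for Cxcl9 (156, next 37.2), and Vehicle replicate 4 low for Crebbp (292, next 385).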

How the results depend on the processing

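The count of genes called against Vehicle, 3 as reported, was 0 with TMM, total counts, limma, no filter, only the libraries of the arms compared, or only Vehicle titles starting with 7, 46 with positive controls, 29 with DESeq2 and 10 with the cartridge as a block. Leaving out each replicate gave 0 to 3. It was 3 with the stricter filter. A block for the title digit gave 3 (Clec4n, Csf2 and Tnf, so Pla2g1b and Ppbp lost their calls). Putting Vehicle replicate 3 back gave 3 (Pla2g1b, Tnf and a lung gene that chose the libraries, so Ppbp lost its call). Leaving out TP-0903 replicate 3 gave 4 (Cxcl1 beside the 3 reported). Chosen after seeing the data, limma after subtracting negative controls gave 0, leaving out combination replicates 1 and 2 gave 1, leaving out 1, 2 and 3 gave 0, and the cartridge block without TP-0903 replicate 3 gave 16. Folds of Pla2g1b, Ppbp, Tnf and Tfrc kept their sign in 27 of 27 alternatives. Among the named genes tested, 50 changed sign with positive controls and 17 without replicates 1, 2 and 3. The cause was not tested.

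For the other comparisons all alternatives were chosen after seeing the data, against 0 called as reported. Against Gemcitabine, positive controls gave 2, DESeq2 2, leaving out combination replicates 1 and 2 gave 11, and leaving out each replicate 0 to 7. Against TP-0903, positive controls gave 261 (260 lower), DESeq2 1, the cartridge block 2, TP-0903 replicate 3 put back 31, and leaving out each replicate 0 to 2. Against TP-0903+Gemcitabine+anti-PD1, leaving out combination replicates 1 and 2 gave 5. No paired analysis was run because the labels link no tumours between the groups. Groups with every lane below its threshold had only bounds, and 70 genes were not tested.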
